A study of Danio rerio with 6 samples.

Results

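The proteasome is the protease complex that removes ubiquitin-tagged proteins, and its subunit genes were followed in zebrafish liver. They were taken by symbol: every row of the deposited count table whose gene symbol, in any case, begins with psma, psmb, psmc, psmd, psme, psmf or psmg followed by a digit, which gave 59 of 32520 rows. The symbol rule itself does not use the counts, but the members were chosen with earlier results of these data known. The rows were sorted by known role into the alpha ring (10 rows) and the standard beta ring (7 rows) of the 20S core, the inducible beta subunits (7), the 19S ATPases (7), the other 19S base and lid subunits (14), assembly chaperones (6), and activators and an inhibitor (6). The remaining 2 rows carry a proteasome-like symbol but encode no subunit: PSMC3IP, a meiotic recombination factor, and PSME3IP1, a partner protein of the PA28 gamma activator. Many symbols are in capitals because the name table spells them so. Where several rows have 1 symbol, the Ensembl identifier is given as well.

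The libraries are poly-A RNA-seq of liver from wild-type zebrafish of the AB laboratory strain. In 3 of them (cryo replicates 1 to 3) the treatment label is sperm cryopreservation, and in the other 3 (fresh replicates 1 to 3) it is fresh sperm as the control; the series title frames the question as long-term effects on offspring. The series text calls the samples biological replicates, but sex, age and the number of fish behind a library are not in the labels. The libraries held 16146121, 8277183 and 10409786 counts in cryo replicates 1, 2 and 3, and 17046138, 17606733 and 16885619 counts in fresh replicates 1, 2 and 3.

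The 20S core is a barrel of stacked rings in which the outer alpha rings gate the entrance and the inner beta rings hold the protease sites. The 19S cap binds ubiquitin chains, removes them and threads the substrate into the core with a ring of ATPases. In cells exposed to interferon, and in immune cells, inducible beta subunits replace the standard catalytic ones to form the immunoproteasome, which favours peptides for class I antigen presentation. In liver the complex turns over damaged and short-lived proteins, and most of its subunits are regarded as housekeeping genes.

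Levels are CPM, a gene's counts relative to the library's total over the tested genes, scaled with TMM factors. That total was 6915957 of 8277183 counts in cryo replicate 2 and 9110387 of 10409786 in cryo replicate 3. In the other libraries it was nearly the whole total. A log2 change is cryopreserved over fresh, so a positive one is higher in the cryopreserved sperm group. No proteasome gene changed by edgeR's quasi-likelihood test with Benjamini-Hochberg adjustment over all tested genes: 0 of 53 tested members had an adjusted p under 0.05, where 1.98% of the 12674 tested genes did (1.02% higher and 0.963% lower). The median log2 change of the 53 members was -0.08, against 0.00 over all tested genes. It was 0.0073 with upper-quartile factors, 0.021 without cryo replicate 1 and 0.098 without fresh replicate 1. Over all tested genes the median was then 0.086, 0.014 and 0.073, so with upper-quartile factors the members stayed below it. At an unadjusted p under 0.05 there were 5 members (psma6l, PSMB7, PSMC2, PSMD7 and PSME2), or 9.43% of those tested, where 18.5% of all tested genes passed. DESeq2 called 1 member, PSMC2, where it called 7.53% of the genes it tested, and limma-voom called 0. The libraries of the groups did not overlap for 7 of the 53 members, 2 of them higher (PSMA8 and PSME3IP1) and 5 lower (PSMA4, PSMB7, PSMC2, PSMD7 and PSME4, ENSDARG00000087911), where 24.6% of all tested genes had no overlap (11.2% higher and 13.4% lower). In size, 39 of 53 members (73.6%) had a log2 change under 0.5 either way, where 55.0% of all tested genes did. The background was not matched for precision, here or for the intervals below: the median SE was 0.30 for the members and 0.40 over all tested genes. The 95% interval of the change lay within 1 either way on the log2 scale for 26 members (49.1%), where it did for 23.4% of all tested genes; for the other members a change of that size was not excluded.

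**Figure D1:**
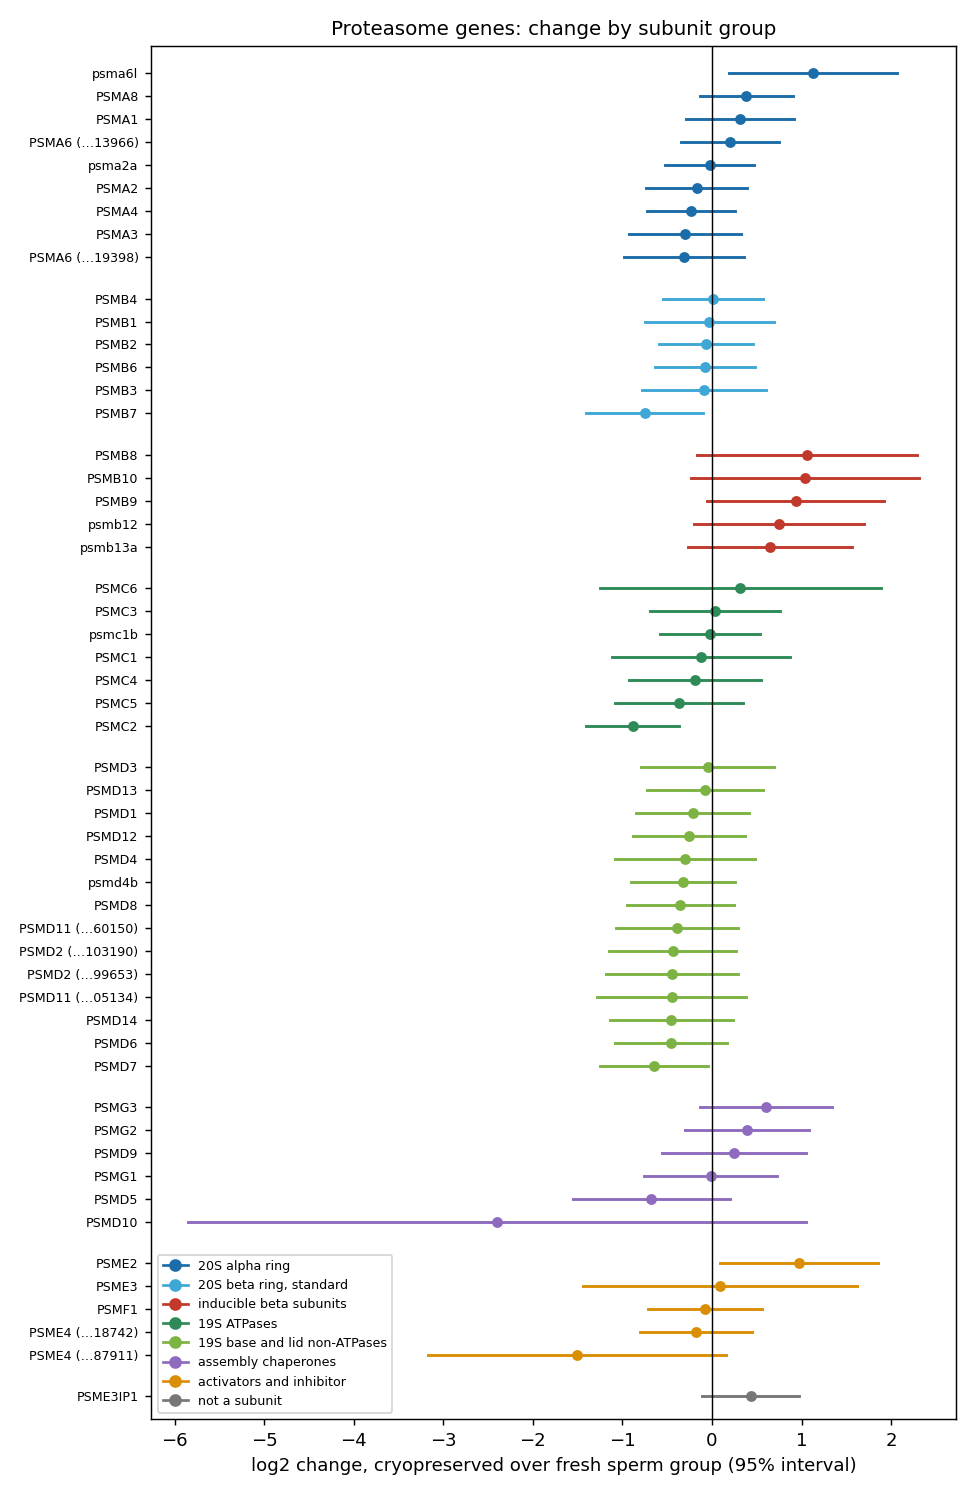
Log2 change (cryopreserved over fresh) of the 53 tested proteasome-named genes, by subunit group. Points are edgeR estimates and bars their 95% intervals from 3 libraries a group. The 5 inducible beta subunits all lie right of 0 and the 14 base and lid non-ATPases with a psm symbol all lie left of 0. None passed the adjusted threshold.

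Facts of the whole series bear on these values. In cryo replicates 2 and 3, which were also the shallowest libraries, the 7 vitellogenin genes made up 17.4% and 12.4% of counts, against at most 6.04e-04% in any other library. Of 10 rows of exocrine pancreas markers, 7 were called higher in the cryopreserved sperm group, where 1.02% of all tested genes were. These rows summed to 854 to 2548 CPM in cryo libraries and 191 to 328 CPM in fresh libraries. All 10 hepatocyte marker rows were detected, at summed levels of 154709 to 241593 CPM in cryo libraries and 136747 to 167786 CPM in fresh libraries. Of the 10 hepatocyte rows 7 had negative log2 changes, where 49.9% of all tested genes did, with a median of -0.49 and 0 called. The transferrin gene tfa, at 78269 to 127072 CPM in cryo libraries and 22260 to 41418 CPM in fresh libraries, made up much of the hepatocyte sum. The part of these differences in any proteasome value was not tested, and in bulk RNA fewer cells of a type and less RNA per cell cannot be told apart.

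The alpha ring of the 20S core showed no common direction. Of its 9 tested genes 4 had positive and 5 negative log2 changes, with a median of -0.03. PSMA8, which had the most counts of this ring, had 56.2, 47.2 and 59.6 CPM in cryo replicates 1, 2 and 3. It had 45.4, 36.0 and 43.5 CPM in fresh replicates 1, 2 and 3. The cryo libraries were all above the fresh ones, by 0.38 ± 0.23 (SE) on the log2 scale, and the difference did not pass (edgeR adjusted p = 0.412). PSMA4 was the converse case, with 36.7, 38.9 and 42.0 CPM in cryo libraries, against 51.0, 42.1 and 45.2 CPM in fresh libraries, a change of -0.24 ± 0.21. Cryo replicate 3 and fresh replicate 2 nearly touched. PSMA1, PSMA2, psma2a, PSMA3 and both rows listed as PSMA6 had changes from -0.31 to 0.32, each with overlapping libraries. Of the rows listed as PSMA6, ENSDARG00000013966 held 67.8%, 63.9% and 55.0% of the counts of its pair in cryo replicates 1, 2 and 3, and 47.0%, 56.8% and 59.5% in fresh replicates 1, 2 and 3. Near copies may share reads, so the split within a pair is uncertain.

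The gene psma6l, an alpha-type subunit gene related to PSMA6, had the largest positive change of any member. It had 7.70, 15.7 and 17.5 CPM in cryo replicates 1, 2 and 3, against 8.29, 4.03 and 6.34 CPM in fresh replicates 1, 2 and 3. Cryo replicates 2 and 3, the libraries with vitellogenin RNA, stood above all others, while cryo replicate 1 lay inside the fresh range. The log2 change was 1.13 ± 0.41 with a 95% interval of 0.19 to 2.07 (edgeR adjusted p = 0.193), and 0.35 when cryo replicate 1 alone stood for its group, a setting chosen once the data had been seen.

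In the standard beta ring the estimates lay near 0 except that of PSMB7. Of 6 tested genes 5 had negative log2 changes, with a median of -0.07, and PSMB1 to PSMB4 and PSMB6 all lay between -0.09 and 0.01. That tally had no stable direction. With upper-quartile factors 2 of 6 were negative (median 0.016). It was 1 of 6 without fresh replicate 1 (median 0.15) or without cryo replicate 1 (median 0.065), and 6 of 6 without fresh replicate 2 (median -0.14). In these settings, in that order, the median over all tested genes was 0.086, 0.073, 0.014 and 0.092. With upper-quartile factors the ring thus lay below all tested genes, as in the main fit. PSMB4, a structural beta subunit and the member of this ring with the most counts, averaged 31.9 ± 3.76 CPM in the cryopreserved sperm group and 31.7 ± 6.04 CPM in the fresh sperm group (SD, n = 3 each). Its 95% interval ran from -0.55 to 0.57 on the log2 scale. PSMB6, the standard catalytic subunit of the beta1 position, averaged 26.8 ± 3.19 and 28.2 ± 5.35 CPM in the cryopreserved and fresh sperm groups. PSMB7, the standard catalytic subunit of the beta2 position, had 17.1, 12.6 and 19.6 CPM in cryo replicates 1, 2 and 3, against 32.4, 20.5 and 30.3 CPM in fresh replicates 1, 2 and 3. No cryo library reached a fresh one, although cryo replicate 3 and fresh replicate 2 were close. The change was -0.75 ± 0.28 and did not pass (edgeR adjusted p = 0.214).

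Rows of core subunits that every cell is thought to need held almost no reads. PSMA5, the alpha5 subunit gene, had 0 counts in all 6 libraries. PSMB5, the standard catalytic subunit of the beta5 position, had 0 counts in each cryo library and 2 counts in each fresh library. A count of 0 allows up to 3 counts, which is 0.194, 0.426 and 0.333 CPM in cryo replicates 1, 2 and 3 and 0.176, 0.163 and 0.179 CPM in fresh replicates 1, 2 and 3, in counting error only. All other rows of the standard 20S rings and of the 19S cap, the inducible and thymus-type beta rows set aside, had at least 16 counts in every library. Why these rows hold so few reads was not tested. Neither row could be compared between groups.

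The inducible beta subunits had the highest median change of the subunit groups, yet none passed. All 5 tested genes had positive log2 changes, from 0.65 to 1.06 with a median of 0.93, where 50.1% of all tested genes were positive, and 0 of 5 had an unadjusted p under 0.05. All 5 stayed positive under each of 15 other settings. PSMB8, the inducible beta5 subunit, had 15.3, 27.5 and 18.98 CPM in cryo replicates 1, 2 and 3, against 18.3, 7.13 and 4.13 CPM in fresh replicates 1, 2 and 3. Fresh replicate 1 lay among the cryo libraries. The change was 1.06 ± 0.53 with a 95% interval of -0.17 to 2.29 (edgeR adjusted p = 0.337), and 1.92 without fresh replicate 1. PSMB9, the inducible beta1 subunit, had 14.0, 16.9 and 7.44 CPM in cryo libraries, against 9.35, 6.86 and 3.83 CPM in fresh libraries, a change of 0.93 ± 0.43 (edgeR adjusted p = 0.293). Its groups overlapped through cryo replicate 3. PSMB10, the inducible beta2 subunit, had 5.50, 12.1 and 4.55 CPM in cryo libraries, against 6.06, 1.85 and 2.75 CPM in fresh libraries (1.04 ± 0.55). The fish genes psmb12 and psmb13a, which RefSeq's synonyms place at the beta1 and beta2 positions, had changes of 0.75 ± 0.41 and 0.65 ± 0.40. In psmb12 the levels were 13.0, 20.6 and 11.2 CPM in cryo libraries and 13.5, 8.003 and 5.08 CPM in fresh libraries. PSMB11 and psmb11b, whose mammalian relative belongs to the thymus, had 0 counts in all 6 libraries.

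**Figure D2:**
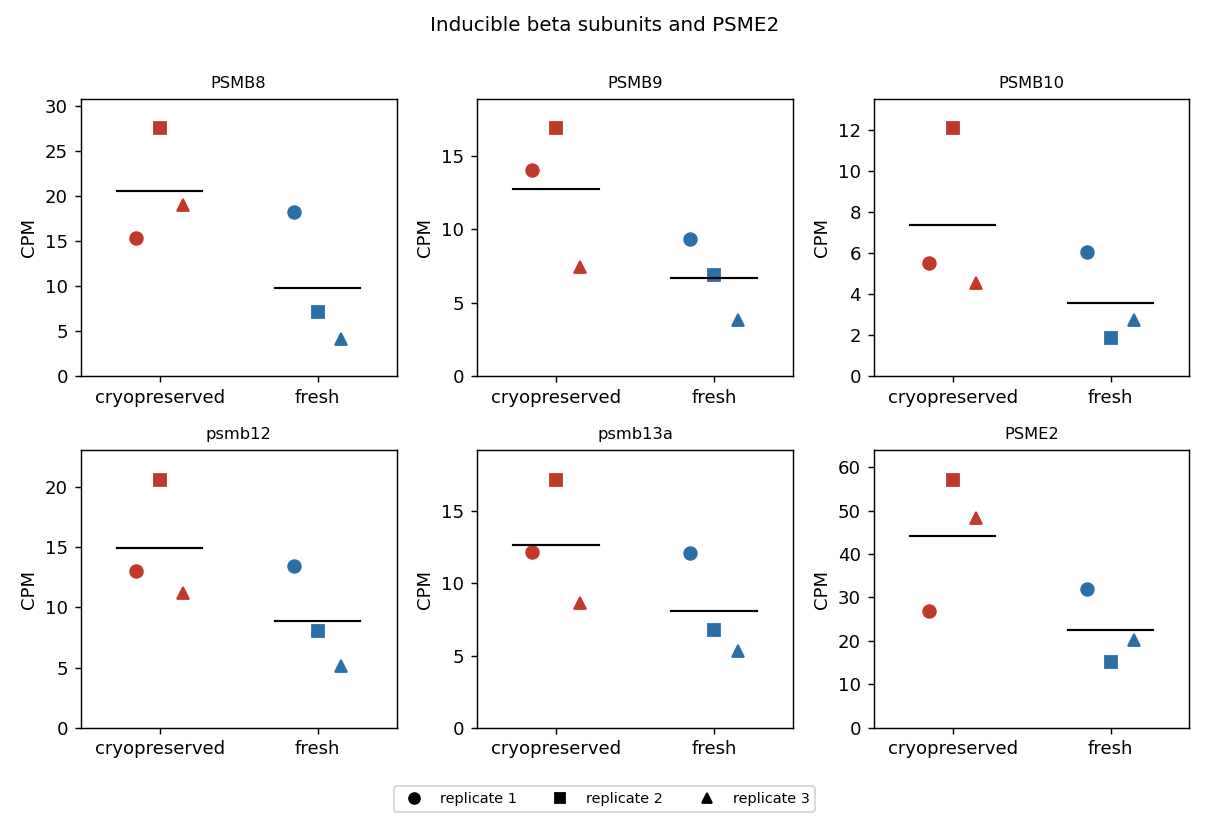
CPM of 5 inducible beta subunit genes and of PSME2 in each library (cryopreserved left, fresh right; markers are libraries, lines are group means). Cryo replicate 2 is the highest library in every panel and fresh replicate 1 the highest fresh library.

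The inducible genes followed the same libraries. Cryo replicate 2 was the highest of the 6 libraries for all 5 genes, fresh replicate 1 was the highest fresh library for all 5, and fresh replicate 3 was the lowest of the 6 for 4 of them. As a mean over the 5 genes of log2(CPM + 1) minus the fresh mean, the shift was 0.74, 1.37 and 0.45 in cryo replicates 1, 2 and 3, and 0.71, -0.17 and -0.54 in fresh replicates 1, 2 and 3. The range within the fresh sperm group was thus wider than the distance between the group means, which was 0.85. In RefSeq's gene order of another assembly (GRCz12tu) the genes psmb8a, psmb13a, psmb12, psmb9a and tap2a follow each other on a chromosome beside the class I gene mhc1uba, and the span of psmb13a overlaps the other 4. If the annotation used for counting is alike, reads of these neighbours could be shared, and they are not independent of each other; psmb10 lies on another chromosome.

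The summed level of the macrophage list was, like the inducible genes, highest in cryo replicate 2 and, among fresh libraries, in fresh replicate 1. All 11 tested rows of the macrophage list were positive, where 50.1% of all tested genes were, and 4 were called higher, where 1.02% were. Summed levels were 2073, 2328 and 1689 CPM in cryo replicates 1, 2 and 3, against 1538, 270 and 365 CPM in fresh replicates 1, 2 and 3. Of the 16 rows on that list 1, a copy of MPEG1 (ENSDARG00000078569), had no count. MFAP4 (ENSDARG00000090557) made up most of the sum, with 1800, 1896 and 1223 CPM in cryo replicates 1, 2 and 3. Other rows differed: cd74a (165, 260 and 304 CPM in cryo libraries), csf1ra and marco were highest in cryo replicate 3. The rows cd74b and MPEG1 (ENSDARG00000043093) were highest in cryo replicate 2. Among fresh libraries cd74a was highest in fresh replicate 1 and MFAP4 (ENSDARG00000038681) in fresh replicate 3. The lymphocyte list summed to 4.85, 8.80 and 14.9 CPM in cryo replicates 1, 2 and 3, against 1.999, 1.74 and 2.21 CPM in fresh replicates 1, 2 and 3, with 4 of its 10 rows (lck, cd79b, PAX5 and RAG1) at 0 everywhere. The neutrophil list summed to 61.5, 397 and 684 CPM in cryo replicates 1, 2 and 3, against 47.5, 3.76 and 5.74 CPM in fresh replicates 1, 2 and 3, with its marker lyz at 1 count in all. Both sums were highest in cryo replicate 3, the cryo library with the lowest inducible shift, but a few rows carried them. Both LECT2 rows made up most of the neutrophil sum there, with 127 and 556 CPM, so that sum mostly follows LECT2 and is not a measure of neutrophils. The listed marker mpx matched no row. The neutrophil row mmp13a had 1.49, 0.709 and 0.333 CPM in cryo replicates 1, 2 and 3. In the lymphocyte list il7r had 12.1 CPM in cryo replicate 3, while ighm had 3.04, 1.99 and 0.555 CPM in cryo replicates 1, 2 and 3. The part of immune cells in the inducible subunit levels was not tested.

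Ratios of counts were also taken of inducible genes over the standard subunit of the same position. These ratios were formed after the values were seen, so they are given without a test, and since gene length enters a ratio only its change between libraries can be read. The counts of PSMB10 over those of PSMB7 were 0.322, 0.955 and 0.232 in cryo replicates 1, 2 and 3, against 0.187, 0.0902 and 0.0907 in fresh replicates 1, 2 and 3. For psmb13a over PSMB7 the ratio was 0.712, 1.36 and 0.441 in cryo libraries, against 0.374, 0.329 and 0.176 in fresh libraries. The groups did not overlap in either ratio. Both ratios share the denominator PSMB7, which was itself lower in every cryo library, whereas the levels of PSMB10 and psmb13a overlapped between groups. How often such ratios fail to overlap among other genes was not computed. At beta1 the groups overlapped. PSMB9 over PSMB6 was 0.598, 0.626 and 0.249 in cryo libraries, against 0.278, 0.300 and 0.136 in fresh libraries. Cryo replicate 3 thus lay within the fresh range. At beta5 no ratio could be formed because of the empty PSMB5 row.

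The PA28 activator, which opens the core without ATP, is built in mammals from the products of PSME1 and PSME2. PSME2 had 26.98, 57.03 and 48.2 CPM in cryo replicates 1, 2 and 3, against 32.0, 15.03 and 20.3 CPM in fresh replicates 1, 2 and 3. Cryo replicates 2 and 3 were above every fresh library, and cryo replicate 1 lay between fresh replicates 3 and 1. The log2 change was 0.97 ± 0.38 with a 95% interval of 0.09 to 1.85 (edgeR adjusted p = 0.229), and 0.31 with cryo replicates 2 and 3 left out. The row of PSME1 had 1 count in all, in fresh replicate 2. A further list held interferon-responsive and class I presentation genes, the setting in which the immunoproteasome works. Of its 15 tested genes 0 passed, where 1.98% of all tested genes did. Log2 changes were positive for 11, where they were for 50.1% of all tested genes, and the median over the 15 was 0.55. The smallest p-values of this list were those of the peptide-trimming genes erap2 and ERAP1 (ENSDARG00000021859) and of the peptide transporter gene tap2a. Their changes were 1.90 ± 0.58, 1.21 ± 0.42 and 1.52 ± 0.55 (edgeR adjusted p = 0.134, 0.176 and 0.196). In tap2a the levels were 9.25, 26.96 and 11.99 CPM in cryo libraries, against 8.94, 5.17 and 2.63 CPM in fresh libraries, again with cryo replicate 2 highest. The interferon gene ifng1 had at most 0.142 CPM in any library.

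The 19S cap genes with a psm symbol leaned lower without any gene passing. All 14 base and lid non-ATPases so named had negative log2 changes, from -0.65 to -0.05 with a median of -0.37. Outside the psm symbols the base receptor gene ADRM1 went the other way (0.91 ± 0.32), while the lid gene SEM1 was lower (-0.51 ± 0.25). Of 7 ATPases 5 were negative (4 with RLE or upper-quartile factors), with a median of -0.12. Over all tested genes 49.9% were negative. Without fresh replicate 1 the ATPases turned, with 3 of 7 negative and a median of 0.16, where the median over all tested genes was 0.07. The tally depended on the libraries and the scaling. Of the 14 genes 11 stayed negative without fresh replicate 1, 12 without cryo replicate 1 and 13 without cryo replicate 2. With upper-quartile factors 12 were negative, while 14 stayed negative under each of the other 11 settings. Upper-quartile factors moved all genes up: the median was -0.29 for the 14 genes and 0.09 over all tested genes. In the main fit these medians were -0.37 and 0.00. The mean shift of the 14 genes was -0.57, -0.29 and -0.14 in cryo replicates 1, 2 and 3, and 0.21, -0.19 and -0.02 in fresh replicates 1, 2 and 3. Fresh replicate 2 was thus below cryo replicate 3. The difference between the cap and the core, whose standard rings had a median of -0.07 over 15 genes, was not tested.

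**Figure D3:**
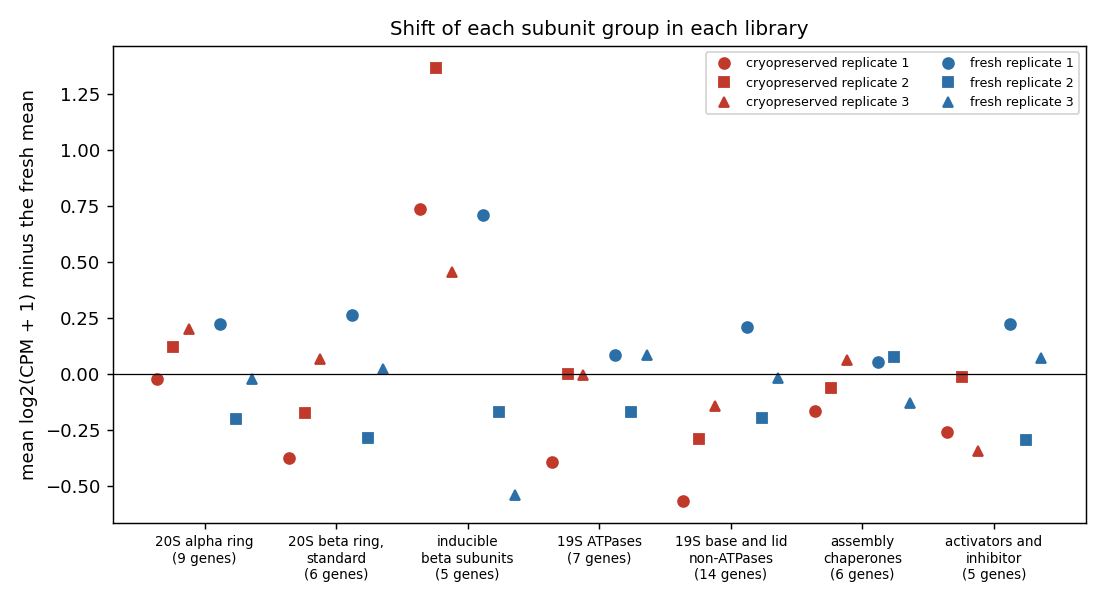
Mean of log2(CPM + 1) minus the fresh mean over the tested genes of each subunit group, 1 point a library (red cryopreserved, blue fresh). Cryo replicate 1 is the lowest library in the standard beta ring, the ATPases and the base and lid genes, and the inducible group spreads over the widest range.

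PSMC2, an ATPase of the 19S base, came closest to the threshold of all members. It had 30.0, 33.2 and 33.0 CPM in cryo replicates 1, 2 and 3, against 66.4, 49.4 and 61.8 CPM in fresh replicates 1, 2 and 3. The cryo libraries were alike and all lay well under the lowest fresh library. The mean was 32.0 ± 1.81 CPM in the cryopreserved sperm group and 59.2 ± 8.82 CPM in the fresh sperm group (SD, n = 3 each), and the log2 change was -0.89 ± 0.23 with a 95% interval of -1.41 to -0.37. The edgeR adjusted p was 0.0892 and the DESeq2 adjusted p 0.0259, and over the 15 alternatives the adjusted p ran from 0.0259 to 0.318 and the change from -0.96 to -0.74. The other ATPase genes gave no such picture: PSMC1, psmc1b, PSMC3, PSMC4 and PSMC5 had changes from -0.37 to 0.03 with overlapping libraries. PSMC5 had 16.4, 25.4 and 27.5 CPM in cryo libraries, against 38.4, 21.8 and 29.1 CPM in fresh libraries.

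PSMC6, a further ATPase of the base, was singled out after its values were seen because of 1 library. It had 7.12, 9.08 and 5.88 CPM in cryo replicates 1, 2 and 3, against 0.941, 8.77 and 7.96 CPM in fresh replicates 1, 2 and 3. Fresh replicate 1, the library in which most other subunit genes were highest, held 16 counts of this gene where the other 5 libraries held 53 to 161.

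Among the base and lid genes PSMD7, a lid subunit that partners the deubiquitinase PSMD14, had the largest difference. Its levels were 5.63, 7.52 and 8.10 CPM in cryo replicates 1, 2 and 3, against 11.4, 10.8 and 11.01 CPM in fresh replicates 1, 2 and 3. The groups did not overlap, and the change was -0.65 ± 0.26 (edgeR adjusted p = 0.239). PSMD6, another lid subunit, had 24.1, 33.2 and 23.5 CPM in cryo libraries, against 45.3, 28.3 and 37.4 CPM in fresh libraries, with overlap through cryo replicate 2 (-0.46 ± 0.27). PSMD1, a scaffold of the base and the member of this group with the most counts, averaged 42.5 ± 11.7 CPM in the cryopreserved sperm group and 49.3 ± 7.74 CPM in the fresh sperm group (SD, n = 3 each). PSMD14 had -0.45 ± 0.30. The ubiquitin receptor genes PSMD4 and psmd4b had -0.30 ± 0.34 and -0.32 ± 0.25. The pairs of rows listed as PSMD2 and as PSMD11 had nearly the same change within each pair (-0.45 and -0.44, and -0.45 and -0.39). RefSeq lists a single psmd2 gene, so reads of the rows named PSMD2 may be divided between 2 entries of 1 gene.

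Among the standard subunits of the core and the cap the libraries differed in level across genes. Of 36 tested genes fresh replicate 1 was the highest of the 6 libraries for 24, and cryo replicate 1 the lowest for 20. All 59 rows together summed to 866, 1061 and 1082 CPM in cryo replicates 1, 2 and 3, against 1241, 883 and 1007 CPM in fresh replicates 1, 2 and 3. Fresh replicate 2 thus lay near cryo replicate 1, and the sums of the groups overlapped. In cryo replicate 1, the lowest library by this sum, vitellogenin genes made up 1.55e-04% of counts. The part of vitellogenin RNA in these levels was not tested.

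**Figure D4:**
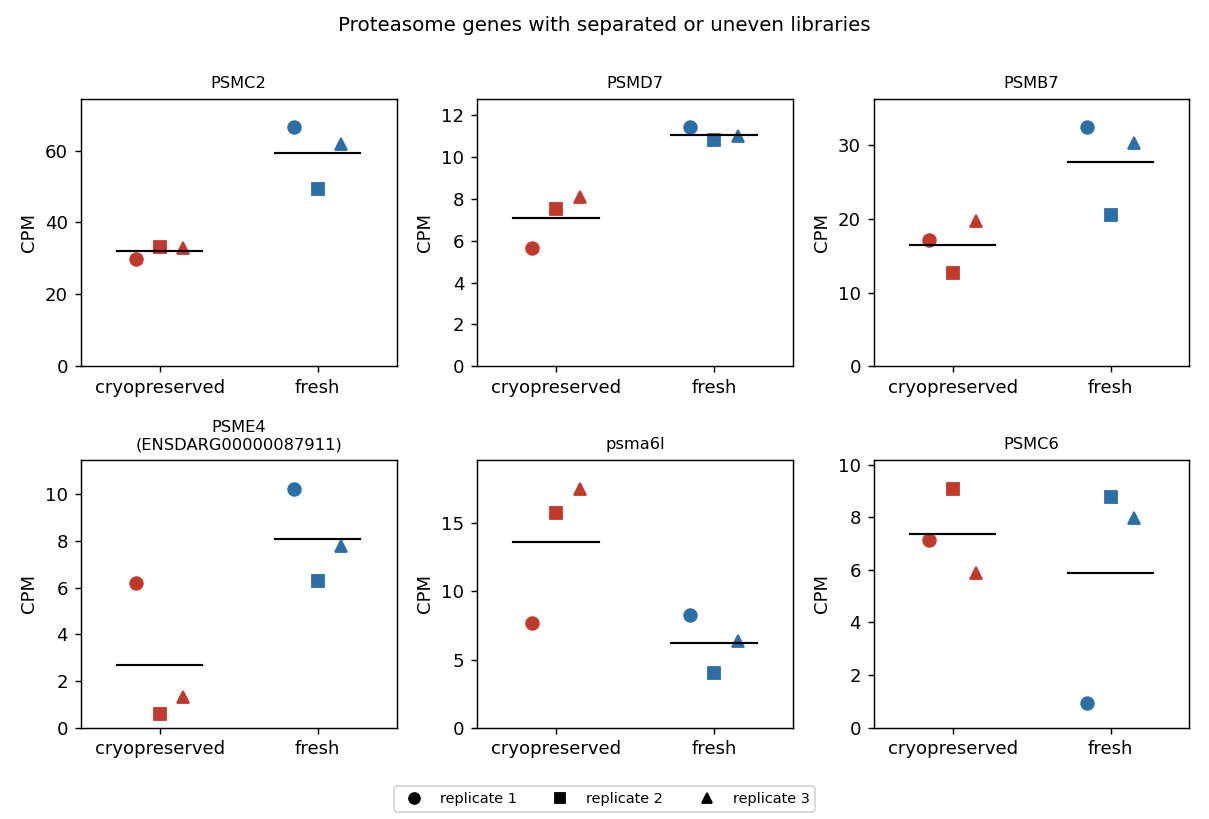
CPM in each library of 3 subunit genes whose groups did not overlap (PSMC2, PSMD7, PSMB7) and of 3 genes with uneven libraries within a group (ENSDARG00000087911 of PSME4, psma6l, PSMC6), with markers as libraries and lines as group means, cryopreserved left and fresh right. The cryo libraries of PSMC2 lie between 30.0 and 33.2 CPM, and fresh replicate 1 stands at 0.941 CPM in PSMC6.

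The PA200 activator gene PSME4, whose product caps the core in an ATP-independent way, is listed in 2 rows that behaved differently. The row ENSDARG00000087911 had 6.21, 0.568 and 1.33 CPM in cryo replicates 1, 2 and 3, against 10.2, 6.26 and 7.78 CPM in fresh replicates 1, 2 and 3. Cryo replicates 2 and 3, with vitellogenin RNA, held 4 and 12 counts, while cryo replicate 1 lay just under the lowest fresh library. The log2 change was -1.51 ± 0.72 with all libraries (edgeR adjusted p = 0.312), -3.03 without cryo replicate 1 (edgeR adjusted p = 0.019, where 6.60% of tested genes were called) and -0.34 with cryo replicates 2 and 3 left out. The other row, ENSDARG00000018742, had 16.1, 24.0 and 13.7 CPM in cryo libraries, against 19.8, 20.4 and 20.6 CPM in fresh libraries (-0.18 ± 0.27). ENSDARG00000087911 therefore made up 27.8%, 2.31% and 8.89% of the pair's counts in cryo replicates 1, 2 and 3, and 34.1%, 23.5% and 27.4% in fresh replicates 1, 2 and 3. PSME3, the PA28 gamma gene, had 1.88, 10.9 and 2.997 CPM in cryo libraries, against 4.17, 3.103 and 7.24 CPM in fresh libraries, with cryo replicate 2 alone high. PSMF1, the gene of the inhibitor PI31, had -0.08 ± 0.27.

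Assembly chaperones, which hold partly built rings and base modules together, did not move as a group. Of 6 tested genes 3 were positive and 3 negative. The core chaperone PSMG3 had 15.5, 12.3 and 8.10 CPM in cryo replicates 1, 2 and 3, against 9.17, 8.28 and 6.22 CPM in fresh replicates 1, 2 and 3 (0.60 ± 0.32, edgeR adjusted p = 0.362). Its groups overlapped through cryo replicate 3. PSMG2, the partner of PSMG1, averaged 22.1 ± 6.08 CPM in the cryopreserved sperm group and 16.8 ± 4.08 CPM in the fresh sperm group (SD, n = 3 each). PSMD5, a chaperone of the 19S base, had 3.82, 2.98 and 6.22 CPM in cryo libraries, against 9.29, 5.83 and 5.74 CPM in fresh libraries (-0.68 ± 0.38). PSMD10, the base chaperone known in mammals as gankyrin, was patchy, with 0, 0 and 9 counts in cryo replicates 1, 2 and 3, against 1, 32 and 55 counts in fresh replicates 1, 2 and 3. Fresh replicate 1 resembled the cryo libraries, and the change of -2.40 ± 1.49 carried a 95% interval of -5.85 to 1.05. Of the 2 rows that encode no subunit, PSME3IP1 had 12.9, 13.8 and 14.4 CPM in cryo libraries, against 10.8, 10.7 and 8.85 CPM in fresh libraries (0.43 ± 0.23, edgeR adjusted p = 0.371), and PSMC3IP had 1 count in the cryopreserved and 3 counts in the fresh sperm group.

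Of the ubiquitin-proteasome factors outside the psm symbols, 0 of 29 tested genes passed, where 1.98% of all tested genes did. Of the 29, 11 were positive and 18 negative, where 49.9% of all tested genes were negative, and the median log2 change was -0.29. An unadjusted edgeR p under 0.05 was found for 7, where 18.5% of all tested genes had one. ECPAS, a scaffold that tethers core and cap and is called Ecm29 in yeast, had 13.1, 12.3 and 8.77 CPM in cryo replicates 1, 2 and 3, against 21.6, 20.4 and 28.7 CPM in fresh replicates 1, 2 and 3. The groups did not overlap, and the change was -1.04 ± 0.27 (edgeR adjusted p = 0.0951). ADRM1, a ubiquitin receptor of the 19S base, had 6.27, 9.93 and 9.77 CPM in cryo libraries, against 5.70, 4.03 and 4.07 CPM in fresh libraries (0.91 ± 0.32, edgeR adjusted p = 0.181). All cryo libraries lay above the fresh ones. The lid component SEM1 had -0.51 ± 0.25, the core chaperone POMP -0.19 ± 0.29 and the deubiquitinase USP14 -0.46 ± 0.28. NFE2L1, whose mammalian product activates proteasome genes when the complex is blocked, had 0.712, 0.426 and 1.11 CPM in cryo libraries and 1.18, 0.817 and 0.957 CPM in fresh libraries.

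The genes that supply ubiquitin itself differed from one another. Ubiquitin is made from polyubiquitin genes, among them ubb and ubc, and from fusions with ribosomal proteins, among them rps27a. The gene ubc had 88.9, 104 and 77.6 CPM in cryo replicates 1, 2 and 3, against 63.9, 48.4 and 52.8 CPM in fresh replicates 1, 2 and 3, with no overlap (0.71 ± 0.24, edgeR adjusted p = 0.172). The gene ubb had 59.5, 104 and 92.8 CPM in cryo libraries, against 199, 85.8 and 190 CPM in fresh libraries (-0.89 ± 0.39, edgeR adjusted p = 0.272), where fresh replicate 2 lay among the cryo libraries. For rps27a the levels were 40.7, 761 and 77.0 CPM in cryo libraries, against 32.6, 37.1 and 33.3 CPM in fresh libraries, and cryo replicate 2 alone set most of the change of 3.09 ± 1.02 (edgeR adjusted p = 0.159). The genes ubb and ADRM1 were named after their values were seen.

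**Figure D5:**
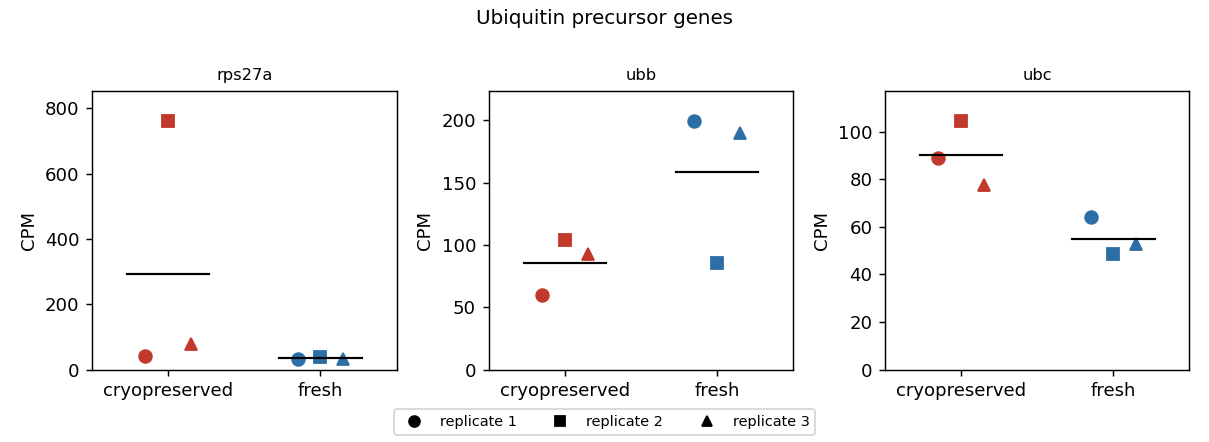
CPM of 3 ubiquitin precursor genes in each library (cryopreserved left, fresh right; markers are libraries, lines are group means). The level of rps27a is 761 CPM in cryo replicate 2, the groups of ubc do not overlap, and those of ubb do.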

How the data were processed

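The authors deposited whole-number counts per Ensembl gene, 1 column a library; the file headers name HISAT2 alignments, and the builds GRCz11 and danRer11 come from the submitters' processing notes. Which program counted the reads, with what gene models and whether by strand, is not stated in the labels or headers, nor is the aligner's version, so reads of overlapping genes and near copies cannot be told apart. Groups follow the treatment labels; titles F1 to F3 carry fresh sperm and C1 to C3 cryopreservation, and if letters and labels were crossed all directions would reverse. All libraries carry 1 batch label. Symbols came from a name table that matched 29201 of 32520 rows.

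Genes passing edgeR's filterByExpr (12674, with 53 members) were tested with edgeR 4.0.16 in R 4.3.3: TMM factors, group as the only term of the quasi-likelihood model, two-sided p-values and Benjamini-Hochberg adjustment over all of them at 0.05. The SE is the change over the square root of F. Alternatives were other size factors, no filter, DESeq2 1.42.0, limma 3.58.1 (voom) and thinning to the shallowest library. Further ones were vitellogenin genes kept out of library sizes, replicate number as a block, and each library left out in turn. Library sizes of the main fit held only tested genes, and of the 7 vitellogenin genes only vtg5 was tested. The vitellogenin alternative therefore differed little from the main fit by design and is a weak check. The procedure was tested on simulated counts. Libraries within a group differed beyond sampling noise (chi-square per degree of freedom of at least 48.0). Members, lists and pairs were chosen with earlier results of these data known. Genes named are, per subunit group, the one of highest mean CPM and the 2 of smallest p, the immunoproteasome genes, the 5 largest changes each way and the 3 of smallest p of each outside list; all other genes named, such as PSMA4 and PSME3, were added after their values were seen. No sequences are printed. Figures were drawn with matplotlib 3.10.9.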

Additional observations from a re-analysis of the deposited data

How the results depend on the processing

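The count of proteasome genes past the threshold was 0 with all libraries in edgeR and stayed 0 in 13 of 15 alternatives; it was 1 by DESeq2 (PSMC2) and 1 without cryo replicate 1 (PSME4, ENSDARG00000087911), so leaving out 1 library gave 0 to 1. Over all genes the count was 251, but 705 with no low-count filter, 1161 by DESeq2, 33 with the replicate block, 32 to 873 when 1 library was left out, and 109 with cryo replicates 2 and 3 left out (chosen once the data had been seen; the lone cryo library is taken to have the spread of the fresh group). The median change of the tested proteasome genes, -0.08 on the log2 scale, ran from -0.17 to 0.10 when 1 library was left out and was -0.30 with cryo replicates 2 and 3 left out. Of 314 values of 21 named genes under the alternatives 306 kept direction and side of the threshold. The change of PSMB4, 0.01, was -0.091 (without fresh replicate 2) to 0.19 when 1 library was left out and -0.15 with cryo replicates 2 and 3 left out. That of PSMB6, -0.08, was 0.012 with upper-quartile factors, where the median over all tested genes was 0.09 and not 0.00 as in the main fit. When 1 library was left out the change of PSMB6 was -0.16 to 0.12. The changes of PSMB4 and PSMB6 are both near 0, and the cause of their reversals was not tested. Same-numbered libraries shared only a number: the correlations of their deviations from the group means were -0.07, -0.13 and 0.06, and 1 of 6 libraries correlated best with its own number. With the replicate block no proteasome gene passed. PSMD10 and the rows at or near 0 hold too few counts to compare groups. PSMD10 had 0 counts in cryo replicate 1 and 55 in fresh replicate 3, libraries of 16146121 and 16885619 counts. The part of depth in its counts was not tested.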
